A study of Mus musculus with 12 samples.

Results

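The complement genes described here are C1qa, C1qb, C1qc, C4b, C3, Cfb, Serping1, C3ar1 and C5ar1, taken as the probes whose gene name in the scanner output is one of these symbols. They are 9 of the 22761 genes tested (34797 gene names in the array design), with 11 probes between them. All 9 were well above background on each of the 12 arrays. Aortic RNA from male mice of mixed strain (129S5/SvEvBrd, C57BL6 and SJL) was hybridised to one-colour arrays, 3 per group. The groups were WT before challenge, WT at day 3 of BAPN + AngII, smSocs3-KO before challenge and smSocs3-KO at day 3. Every mouse carried the floxed Socs3 allele (Socs3fl/fl). The smSocs3-KO mice also carried SM22-Cre, which is driven by a smooth muscle promoter, and the WT mice were littermates without it. BAPN, which blocks lysyl oxidase and so the crosslinking of matrix fibres, was infused at 150 mg/kg/day together with the pressor hormone AngII at 1000 ng/kg/min from minipumps. The "before" groups received no infusion, and the labels do not give ages. Nothing in the labels ties each array to its own animal, so the p-values measure the spread between these samples only.

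Complement is a cascade of plasma proteins that marks targets for removal by phagocytes. The classical pathway starts when C1q, built from the chains encoded by C1qa, C1qb and C1qc, binds a target, after which C4 and C2 are cleaved to form the enzyme that splits C3. The alternative pathway amplifies C3 cleavage through factor B (Cfb), the C1 inhibitor (Serping1) restrains the classical proteases, and the small fragments C3a and C5a act on the receptors C3ar1 and C5ar1. Most plasma complement comes from the liver, while C1q is made largely by macrophages.

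Values are log2 signals relative to the 75th percentile of their own array, so that 0 is the signal of that percentile and 1 unit is a doubling. Between 52.83% and 58.32% of spots per array were well above background and none was saturated. The correlation of arrays within a group lay between 0.964 and 0.992. Socs3, the deleted gene, was not lower under the smSocs3-KO label. It read 0.30, 0.32 and 0.75 in WT and 0.24, 1.14 and 1.46 under the smSocs3-KO label before challenge, and 2.21, 2.30 and 0.64 against 3.31, 2.28 and 4.13 at day 3 (difference 1.52 ± 0.53, adjusted p = 0.208). The arrays are therefore called arrays labelled smSocs3-KO. Whether the Socs3 probe lies in the deleted stretch was not tested. Whole-tissue RNA of the label "aorta" gave kept probes for all 7 smooth muscle markers (Acta2, Myh11 and others). Of 6 liver genes, Alb, Apoa1, Ttr and Fgb were not kept, while Ahsg and Serpina1a were. The 6 WT arrays and smSocs3-KO replicate 1 before challenge shared slide 1, whereas slide 2 held the remaining 5 arrays of that label. In 1 WT day 3 array, replicate 4, the summed signal of 10 macrophage markers was 49.6, against 108 and 77.6 in the other WT day 3 arrays and 42 to 44.9 before challenge.

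The probes read the following stretches of transcript, shown because every level below is the brightness of such a probe. Positions are given on mm9 as in the array design, all on the minus strand. The probes of C1qa (chr4:136452409-136452468), C1qb (chr4:136436578-136436637) and C3 (the second of its probes, chr17:57343678-57343737) lie in unbroken genomic sequence. Those of Cfb (chr17:34993502-34993858, a span of 357 bases) and Serping1 (its second probe, chr2:84605968-84607474, a span of 1507 bases) are 60 bases long and thus cross at least 1 intron, so that they match spliced RNA rather than genomic DNA.
C1qa probe: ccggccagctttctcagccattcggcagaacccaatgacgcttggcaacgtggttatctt
C1qb probe: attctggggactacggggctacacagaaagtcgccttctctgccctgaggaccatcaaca
C3 second probe: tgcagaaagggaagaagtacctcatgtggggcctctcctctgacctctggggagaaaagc
Cfb probe: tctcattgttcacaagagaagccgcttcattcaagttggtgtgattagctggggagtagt
Serping1 second probe: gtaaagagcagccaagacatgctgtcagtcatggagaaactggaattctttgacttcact

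Promoter sequence was at hand for 5 of the 9 genes (RefSeq, GRCm38.p6). The 250 bases before the annotated start are shown for a pair of C1q chains and for C3, because these genes followed different patterns on the arrays. Capitals mark matches, on either strand, to GGAAGT (the ETS core, which on the other strand reads ACTTCC) or TTGCNNAA (a C/EBP-type motif). C1qb lies at chr4:136886201-136886450, C1qc at chr4:136892915-136893164 and C3 at chr17:57228137-57228386, all on the minus strand.
C1qb promoter: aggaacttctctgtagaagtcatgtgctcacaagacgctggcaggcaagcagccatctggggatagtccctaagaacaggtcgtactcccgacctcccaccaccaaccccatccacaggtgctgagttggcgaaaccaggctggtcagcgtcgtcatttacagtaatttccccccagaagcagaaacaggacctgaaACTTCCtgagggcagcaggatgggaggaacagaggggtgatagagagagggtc
C1qc promoter: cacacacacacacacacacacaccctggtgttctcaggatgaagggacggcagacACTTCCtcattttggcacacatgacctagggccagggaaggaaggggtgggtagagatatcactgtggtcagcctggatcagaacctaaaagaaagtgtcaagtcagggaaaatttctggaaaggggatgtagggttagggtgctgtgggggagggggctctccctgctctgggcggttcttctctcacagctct
C3 promoter: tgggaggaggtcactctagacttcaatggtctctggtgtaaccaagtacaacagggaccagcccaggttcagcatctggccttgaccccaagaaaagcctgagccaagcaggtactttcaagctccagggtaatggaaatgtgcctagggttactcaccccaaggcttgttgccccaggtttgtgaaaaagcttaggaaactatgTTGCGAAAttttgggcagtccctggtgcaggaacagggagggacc

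GGAAGT was found in C1qb, C1qc and C5ar1, 3 of the 5 promoters, and in 19.7% of all 32851 RefSeq promoter windows of that length. TTGCNNAA was found in C3 alone of the 5, and in 9.56% of all windows. TTCNNNGAA, the STAT-type motif found in 7.02% of all windows, was in none of the 5. The motif letters were chosen after the sequences had been seen, and a match describes letters only.

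By what passed the test, genes went with the challenge, with the genotype label, with both (Cfb) or with neither (C1qb and Serping1). The split is not clean. C1qa, C1qb and C1qc also had higher means under the label at day 3, by 1.39 ± 0.40, 0.84 ± 0.32 and 0.82 ± 0.24 (log2, SE). Their limma adjusted p-values were 0.134, 0.236 and 0.136, so none passed. The C1q chains and the receptors C3ar1 and C5ar1 had higher means at day 3 in both genotypes, by 1.69-fold to 4.21-fold. These genes were grouped by their response in these data, so their own share called is not set beside that of all genes. Of the 9 members, 1 rose in WT, where 3.59% of all genes did, and 5 rose under the smSocs3-KO label, where 1.71% did. C3 was 3.52-fold higher under the smSocs3-KO label before challenge and 3.46-fold higher at day 3, with challenge differences of 0.05 and 0.02 (log2). C4b and Cfb had higher means under the label at both times and passed at day 3, and Cfb also rose with the challenge under the label. No comparison of Serping1 passed.

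C1qa, the A chain of C1q, read 1.51, 1.45 and 1.52 in WT before challenge and 3.50, 2.72 and 2.16 at day 3. Under the smSocs3-KO label it read 1.36, 2.40 and 2.91 before and 3.82, 4.36 and 4.36 at day 3. No day 3 array overlapped the arrays of the same genotype before challenge, and the lowest of the WT day 3 arrays was replicate 4. The difference was 1.30 ± 0.40 (log2, SE) in WT, with a limma adjusted p of 0.0762, and 1.95 ± 0.40 under the smSocs3-KO label, with an adjusted p of 0.0379, so that C1qa rose in the latter.

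C1qb read 1.69, 1.76 and 1.71 in WT before challenge, 3.49, 2.77 and 2.25 in WT at day 3, 1.78, 2.48 and 2.75 before under the smSocs3-KO label, and 3.39, 3.90 and 3.75 at day 3. The groups before and at day 3 did not overlap in either genotype. Its differences of 1.12 ± 0.32 and 1.34 ± 0.32 had adjusted p-values of 0.0647 and 0.0557 and did not pass. C1qc read 3.00, 3.06 and 2.80, then 4.18, 3.79 and 3.17 in WT, and 3.05, 3.23 and 3.40, then 4.32, 4.57 and 4.69 under the smSocs3-KO label. The arrays did not overlap here either. C1qc rose by 1.30 ± 0.24 under the smSocs3-KO label (adjusted p = 0.0284), while in WT the difference was 0.76 ± 0.24 (adjusted p = 0.0802).

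The 3 chains moved together from array to array. Across the 12 arrays the Pearson correlation of C1qa with C1qb was 0.991, and it was 0.976 after the group means had been removed. Those of C1qa with C1qc were 0.967 and 0.817. The arrays share their RNA labelling and scaling, and these values are descriptions.

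C4b, the C4 of the classical pathway, read 4.23, 4.54 and 3.85 in WT and 5.58, 5.47 and 6.19 under the smSocs3-KO label before challenge. At day 3 it read 4.92, 5.08 and 4.44 in WT and 5.89, 6.65 and 6.74 under the label. The arrays of the 2 labels did not overlap at either time. C4b was higher under the label by 1.62 ± 0.30 at day 3 (3.07-fold, adjusted p = 0.0321). The difference before challenge was 1.54 ± 0.30, with an adjusted p of 0.244. The challenge differences were 0.61 (95% interval −0.05 to 1.26, adjusted p = 0.219) and 0.68 (0.03 to 1.34, adjusted p = 0.195). The probe also lists a transcript of the paralogue C4a, so that the 2 genes cannot be told apart.

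C3 is the central component on which the pathways converge, and each array carried 10 spots of its main probe. It read 6.48, 6.73 and 6.43 in WT and 8.22, 8.04 and 8.83 under the label before challenge, and 6.62, 6.56 and 6.61 against 8.36, 8.59 and 8.20 at day 3. Every array labelled smSocs3-KO was above every WT array. C3 was higher by 1.82 ± 0.21 before challenge (adjusted p = 0.0191) and by 1.79 ± 0.21 at day 3 (adjusted p = 0.00723). The challenge difference was 0.05 in WT (95% interval −0.41 to 0.51) and 0.02 under the label (−0.44 to 0.48). These intervals leave room for a change of about 0.5 log2 units in either direction.

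The second C3 probe, whose sequence is shown above, gave the same order. It read 5.60, 5.96 and 5.55 in WT and 7.46, 7.14 and 8.04 under the label before challenge, and 5.58, 5.48 and 5.53 against 7.49, 7.73 and 7.31 at day 3. The genotype differences at this probe were 1.85 ± 0.23 (adjusted p over all probes = 0.0265) and 1.98 ± 0.23 (0.00731).

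Cfb, the protease precursor of the alternative pathway, read 2.65, 3.04 and 3.06 in WT before challenge and 3.77, 3.85 and 3.38 at day 3. Under the smSocs3-KO label it read 3.82, 3.98 and 4.58 before and 5.17, 5.19 and 5.54 at day 3. No 2 groups compared overlapped, and the arrays labelled smSocs3-KO before challenge reached the level of WT at day 3. Cfb rose by 1.17 ± 0.23 with the challenge under the label (adjusted p = 0.036), against 0.75 ± 0.23 in WT (adjusted p = 0.0764). The genotype difference was 1.63 ± 0.23 at day 3 (3.10-fold, adjusted p = 0.0143) and 1.21 ± 0.23 before challenge (adjusted p = 0.236).

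Serping1, the inhibitor of the C1 proteases, read 6.66, 6.68 and 6.78 in WT before challenge, 6.66, 6.71 and 7.07 in WT at day 3, 7.13, 6.93 and 7.08 before under the smSocs3-KO label and 7.46, 7.45 and 7.18 at day 3. The 2 labels did not overlap at either time, with gaps of a fraction of a unit. The genotype difference was 0.34 ± 0.16 before challenge (adjusted p = 1) and 0.55 ± 0.16 at day 3 (1.46-fold, adjusted p = 0.135). Its second probe gave 0.32 and 0.71 for the same differences. At that probe the labels overlapped before challenge, with 5.60 in WT replicate 3 and 5.49 in smSocs3-KO replicate 1.

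C3ar1, the receptor of C3a, read −2.10, −2.11 and −2.10 in WT before challenge and −2.09, −2.04 and −2.05 under the smSocs3-KO label. At day 3 it read −0.11, −0.56 and −1.74 in WT and −0.39, −0.38 and −0.64 under the label. All 6 arrays before challenge lay within a narrow band below all 6 day 3 arrays, of which WT replicate 4 was the lowest. C3ar1 rose by 1.30 ± 0.32 in WT (2.46-fold, adjusted p = 0.0475) and by 1.59 ± 0.32 under the label (3.01-fold, adjusted p = 0.0379). It was the 1 member that rose in both genotypes. The genotype difference at day 3 was 0.33 (95% interval −0.38 to 1.05), and it was −0.13 without WT day 3 replicate 4.

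C5ar1, the receptor of C5a on myeloid cells, read −2.49, −3.02 and −2.39 in WT before challenge and −0.49, −1.08 and −2.40 at day 3. Under the smSocs3-KO label it read −2.83, −2.15 and −2.31 before and −0.12, −1.01 and 0.05 at day 3. The WT groups overlapped through replicate 4 of day 3, and the groups under the label did not overlap. C5ar1 rose by 2.07 ± 0.45 under the label (4.21-fold, adjusted p = 0.0428), against 1.31 ± 0.45 in WT (adjusted p = 0.102).

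**Figure D1:**
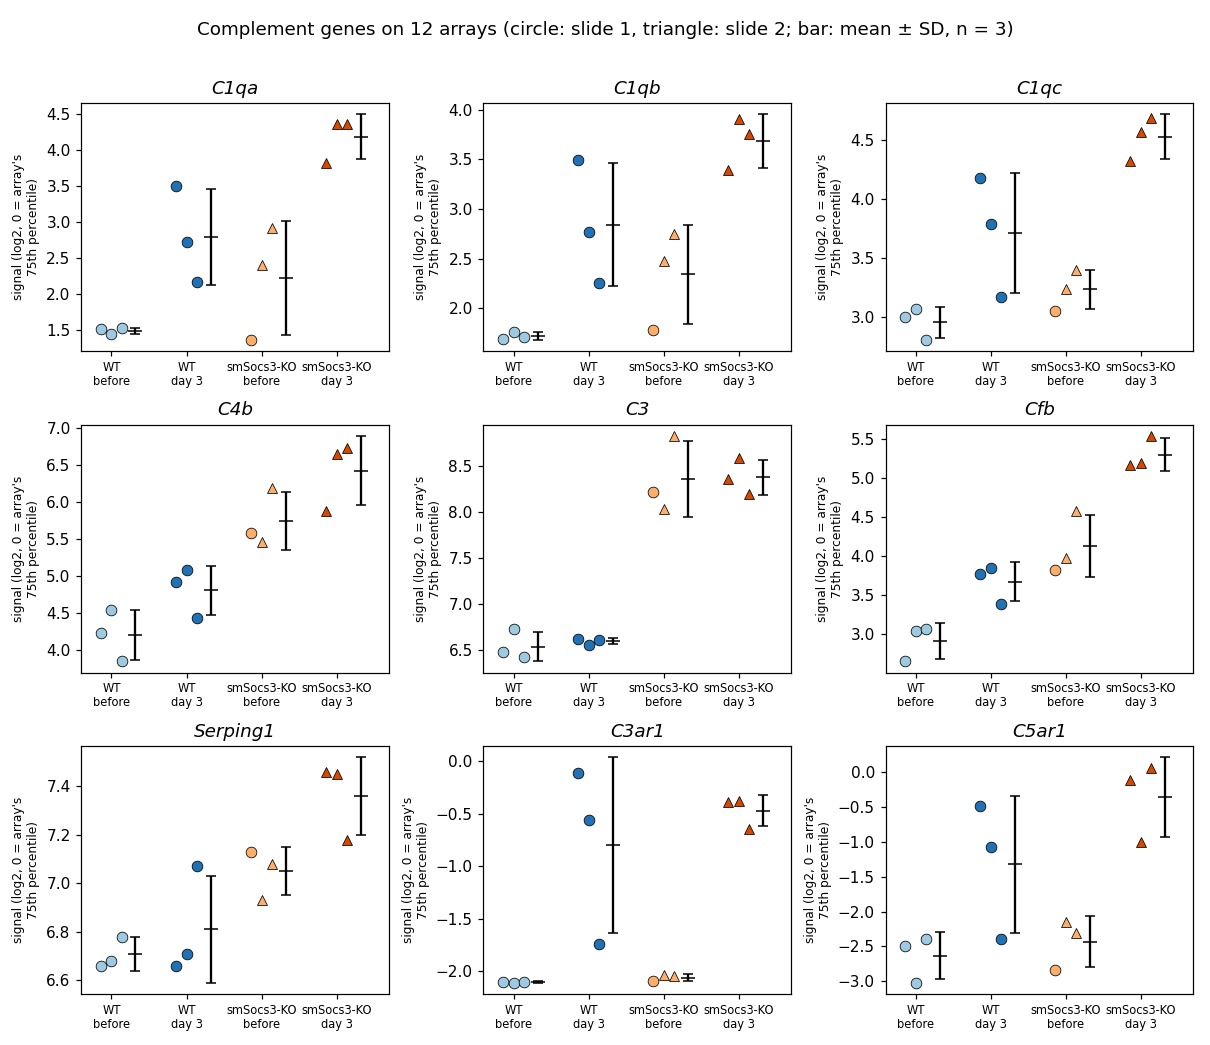
Log2 signal of each of the 9 complement genes relative to the 75th percentile of the array (vertical axis) in the 4 groups (horizontal axis). Each point is an array, circles lie on slide 1 and triangles on slide 2, and bars give the mean ± SD of 3 arrays. C3 under the smSocs3-KO label lies between 8.04 and 8.83 at both times, above the WT range of 6.43 to 6.73, while C3ar1 lies between −2.11 and −2.04 before challenge in both genotypes.

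Of the 9 genes, 1 (C3ar1) rose in WT at an adjusted p under 0.05, where 3.59% of all genes did, and 5 (C1qa, C1qc, Cfb, C3ar1 and C5ar1) rose under the smSocs3-KO label, against 1.71%. None fell in either, where 1.09% and 0.734% of all genes did. The median challenge difference of the 9 was 0.76 in WT and 1.30 under the label, where the medians of all genes were −0.02 and −0.06. At the threshold of the study's network (p under 0.01 with a fold change above 4 or below 0.25) C5ar1 alone was past it under the label (background 1.44%), and no member was in WT (background 1.11%). Day 3 arrays lay above the arrays before challenge without overlap for 5 of the 9 in WT, where 20.7% of all genes did so, and for 7 of the 9 under the label, where 14.1% did.

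The WT counts depended on single arrays, as did those over all genes. Without WT day 3 replicate 4, 6 members were called, in a fit that called 15.9% of all genes, with C1qa at 1.61 (adjusted p = 0.0256), C1qb at 1.42 (0.0146), C1qc at 1.03 (0.0081), Cfb at 0.90 (0.0354), C3ar1 at 1.77 (0.000318) and C5ar1 at 1.85 (0.00924). Without smSocs3-KO replicate 1 before challenge, 3 members were called in WT, in a fit that called 10.4% of all genes. Without WT day 3 replicate 1, the WT differences were 0.95 for C1qa, 0.80 for C1qb, 0.53 for C1qc, 0.95 for C3ar1 and 0.89 for C5ar1, and no gene was called. When any 1 of the other 10 arrays was left out, C3ar1 was not called and the WT count was 0 (C3ar1 at 0.95 to 1.30, adjusted p 0.0575 to 0.186). Those fits called 0 to 1032 of all genes. The count of 5 under the smSocs3-KO label came from a fit that called 2.45% of all genes. It was 0 without WT replicate 1 or 2 before challenge, smSocs3-KO replicate 1 or 3 before challenge, or smSocs3-KO replicate 5 of day 3. Those fits called 0.185% to 0.778% of all genes. The count was 1 without WT replicate 3 before challenge or smSocs3-KO replicate 2 or 3 of day 3 (0.826% to 1.57% of all genes). It was 3 without WT day 3 replicate 3 or smSocs3-KO replicate 4 before challenge (1.71% and 1.64%). It was 6 without WT day 3 replicate 1 or 4 (2.9% and 8.43%). The log2 differences of C1qa in these fits lay between 1.52 and 2.30.

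By genotype, C3 alone was higher before challenge at an adjusted p under 0.05, where 0.0264% of all genes were. At day 3, C3, C4b and Cfb were higher, against 0.958% of all genes. None was lower at either time, where 0% and 0.154% of all genes were. For 6 members (C1qb, C3, C4b, Cfb, Serping1 and C3ar1) the arrays did not overlap between the labels before challenge (background 6.48%). All were higher under smSocs3-KO, but C3ar1 by only 0.05 log2 units, and the second Serping1 probe overlapped. For 6 (C1qa, C1qc, C3, C4b, Cfb and Serping1) the arrays did not overlap at day 3 (background 7.86%). The median genotype difference of the 9 was 0.62 before challenge and 0.97 at day 3, against 0 and −0.08 for all genes. The genotype difference before challenge shares its WT arrays with the WT challenge response, and the 2 genotype differences have no array in common.

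The call of C3 before challenge was lost without WT replicate 1, 2 or 3 before challenge or smSocs3-KO replicate 2 of day 3 (1.76 to 1.91, adjusted p 0.058 to 0.14). Those fits called 1 to 5 of all genes, against 6 with all arrays. At day 3 C3 was called whichever array was left out (1.69 to 1.88). Cfb was not called without smSocs3-KO replicate 5 of day 3 (1.51, adjusted p = 0.0648). C4b was not called without WT replicate 1 or 2 before challenge, WT day 3 replicate 1 or 3, or smSocs3-KO replicate 3 or 5 of day 3 (1.46 to 1.75, adjusted p 0.0521 to 0.133). The fits that lost C4b called 45 to 161 of all genes, against 253 with all arrays.

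A test of the genotype by challenge interaction asked whether the challenge response differed between the labels. It called 0 of 22761 genes (1214 had an unadjusted p under 0.05), and 0 of the 9 members, whose lowest unadjusted p was 0.137 (C1qc). The interaction was 0.66 for C1qa (95% interval −0.59 to 1.90), 0.54 for C1qc (−0.20 to 1.28), 0.42 for Cfb (−0.30 to 1.14) and 0.76 for C5ar1 (−0.64 to 2.17). A larger response of these genes under the smSocs3-KO label was therefore not shown, and the intervals are wide.

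**Figure D2:**
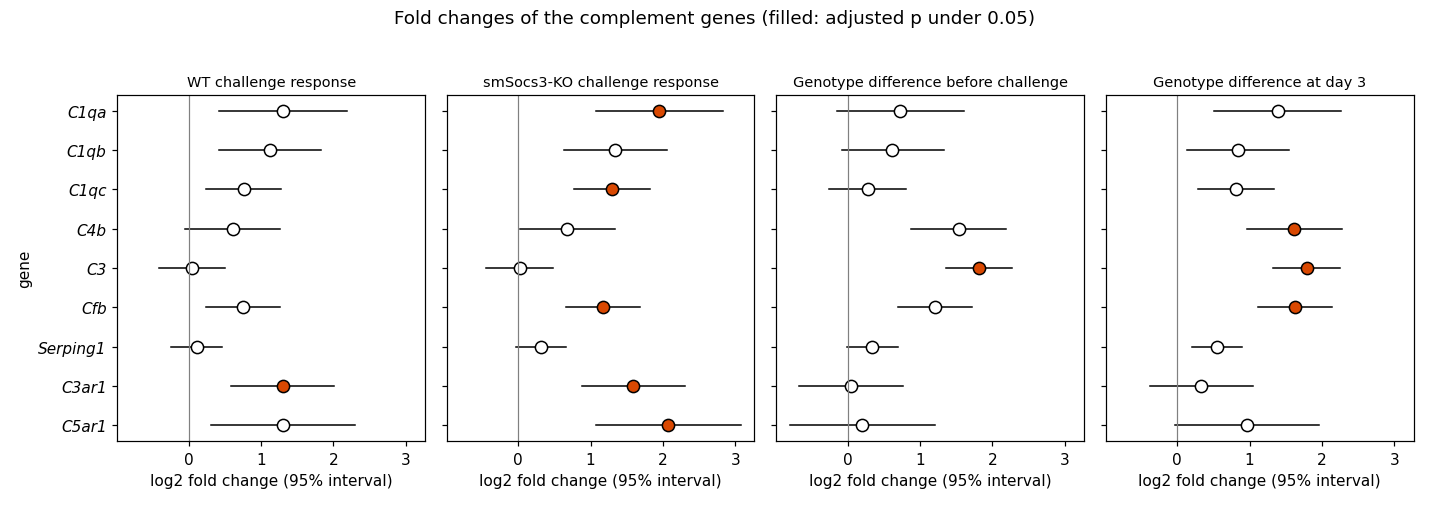
Log2 fold change (horizontal axis) of each complement gene (vertical axis) in the 4 comparisons, with 95% intervals from limma. Filled points passed an adjusted p under 0.05. The filled points are C3ar1 in the WT challenge response, 5 genes in the smSocs3-KO challenge response, C3 in the genotype difference before challenge, and C3, C4b and Cfb at day 3.

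Genotype and slide overlapped in the design, and smSocs3-KO replicate 1 before challenge is the 1 array that shares a slide with WT. On that array C3 read 8.22, C4b 5.58 and Cfb 3.82, each above all 3 WT arrays before challenge on the same slide. C1qa read 1.36 there, below those WT arrays, against 2.40 and 2.91 for the same genotype on slide 2. With the slide as a block, arrays are compared within a slide. The genotype difference before challenge is then smSocs3-KO replicate 1 minus the WT mean, so it restates the readings above. In that fit the genotype difference of C3 was 1.67 before challenge and 1.57 at day 3. That of C4b was 1.37 and 1.37, and that of Cfb was 0.91 and 1.18. None of these passed in that fit (adjusted p 0.219 to 0.474), which called 0 of all 22761 genes by genotype at either time. The genotype differences of C1qa were −0.13 and 0.09 in that fit, those of C1qb 0.06 and 0, and those of C5ar1 −0.20 and 0.37. Those of C1qc were 0.10 and 0.56, those of Serping1 0.42 and 0.67, and those of C3ar1 0.02 and 0.29. At day 3 the genotypes lie on different slides, so the block carries the slide step over from the arrays before challenge. That step also rests on smSocs3-KO replicate 1.

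The WT arrays of both times lie on slide 1, while the response under the smSocs3-KO label crosses slides through replicate 1 before challenge. In WT the block called C1qa, C1qb and C3ar1 (adjusted p 0.0342, 0.0374 and 0.0404), in a fit that called 10.4% of all genes. The block gives the same challenge responses as the fit without smSocs3-KO replicate 1 before challenge, so it is no separate check. Under the smSocs3-KO label on slide 2 the responses were 1.52 for C1qa, 1.21 for C1qc, 1.02 for Cfb, 1.57 for C3ar1 and 1.87 for C5ar1, with adjusted p-values of 0.0945 to 0.145, so that 0 of the 9 members passed there (52 of all genes did).

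**Figure D3:**
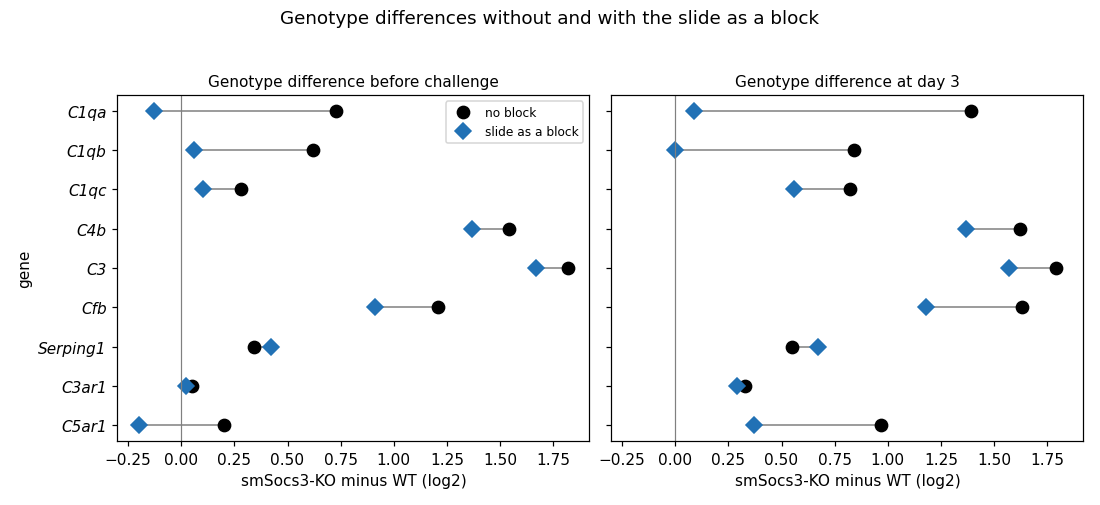
Genotype difference (log2, smSocs3-KO minus WT, horizontal axis) of each complement gene (vertical axis) before challenge and at day 3, without a block (black circles) and with the slide as a block (blue diamonds). C3, C4b and Cfb stay between 0.91 and 1.82 in both fits, while C1qa moves from 0.73 to −0.13 before challenge and from 1.39 to 0.09 at day 3. Before challenge, the blocked difference is smSocs3-KO replicate 1 minus the WT mean.

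Levels of markers of other cell types are set beside both patterns. In whole tissue, more cells of a type and more RNA per cell cannot be told apart. The 10 macrophage markers (Cd68, Csf1r, Mrc1 and others) summed to 42 to 44.9 in WT without challenge and to 49.6 to 108 at day 3, and to 43.4 to 58 before under the smSocs3-KO label and 108 to 118 at day 3, in units of the array's 75th percentile. The mean log2 level of the C1q chains was 2.01 to 2.09, 2.53 to 3.72, 2.06 to 3.02 and 3.84 to 4.28 in the same groups, and WT day 3 replicate 4 was lowest of its group in both. Of the 10 markers, 5 rose under the label (Cd14, Cd163, Cd68, Lyve1 and Mrc1, by 1.57 to 2.16), where 1.71% of all genes did. In WT 0 rose, where 3.59% of all genes did. The median differences were 1.61 under the label and 0.96 in WT. Mertk had a lower mean at day 3 in both (−0.56 and −0.43), as had Cd163 in WT (−0.12), and these did not pass. The part of macrophages in the rise of the C1q chains and the receptors was not tested.

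The 6 mesothelial markers (Msln, Upk3b, Lrrn4, Krt19, Krt8 and Wt1), genes of the serosal lining, summed to 4.2 to 24.1 in unchallenged WT and to 2.99 to 15 in challenged WT, against 30.1 to 68 and 32.5 to 51.5 under the smSocs3-KO label. None of the 6 passed in any comparison, with median genotype differences of 2.07 and 2.60. Within the WT arrays the mesothelial sum varied 8.05-fold, while C3 stayed between 6.43 and 6.73. Under the smSocs3-KO label before challenge the sums were 53.3, 30.1 and 68, with C3 at 8.22, 8.04 and 8.83. At day 3 under the label they were 32.5, 37 and 51.5, with C3 at 8.36, 8.59 and 8.20. The part of these cells in the differences of C3, C4b and Cfb was not tested.

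Hepatocytes are the main source of circulating complement, and 2 of the 6 hepatocyte markers were kept (Ahsg and Serpina1a). Their sum was 7.24 to 11.8 in WT before challenge and 10.2 to 24.2 at day 3, and 9.16 to 14.2 and 15.5 to 38.9 under the smSocs3-KO label. Alb, Apoa1, Ttr and Fgb did not pass the filter. Ahsg, a plasma glycoprotein, rose by 2.61 ± 0.27 with the challenge under the smSocs3-KO label (adjusted p = 0.00472) and was 1.81 ± 0.27 higher under the label at day 3 (adjusted p = 0.0174). It differed by 0.82 in the WT response (adjusted p = 0.0926) and by 0.02 between the genotypes before challenge. Serpina1a passed in no comparison. The part of hepatocyte RNA in the results was not tested.

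**Figure D4:**
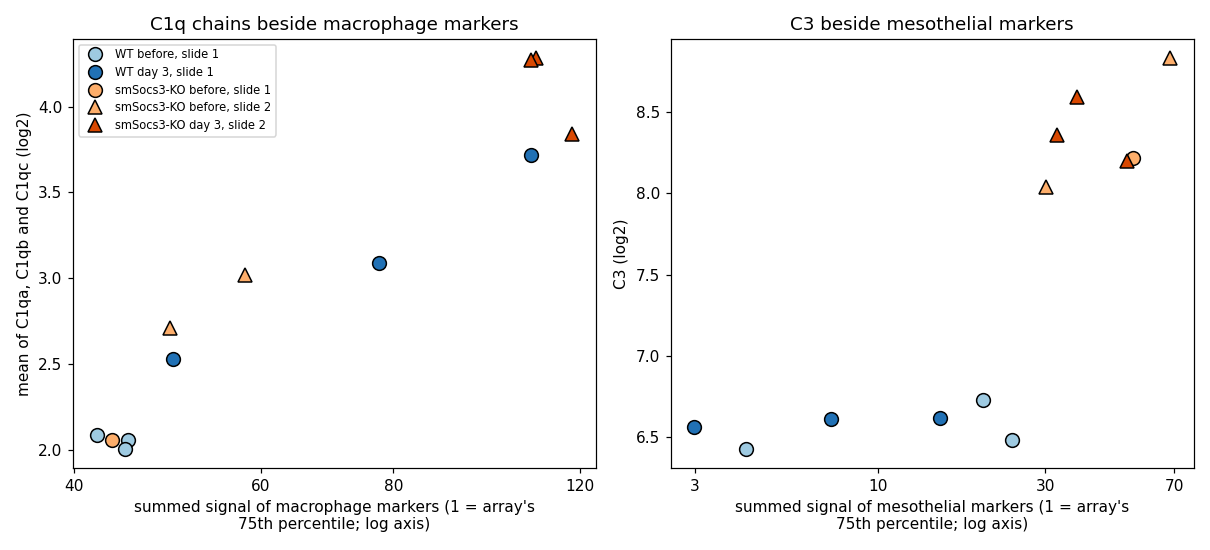
Left, mean log2 signal of C1qa, C1qb and C1qc (vertical axis) against the summed signal of 10 macrophage markers (horizontal log axis). Right, log2 signal of C3 against the summed signal of 6 mesothelial markers (horizontal log axis). Each point is 1 of 12 arrays, coloured by group, with circles for slide 1 and triangles for slide 2. The C1q mean runs from 2.01 to 4.28 as the macrophage sum runs from 42 to 118, while C3 lies at 6.43 to 6.73 over WT mesothelial sums of 2.99 to 24.1 and at 8.04 to 8.83 over sums of 30.1 to 68.

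The other genes of the cascade numbered 49 in the design, of which 38 were kept. They comprised 10 of 15 classical and lectin initiators, 2 of 2 alternative pathway activators, 4 of 7 genes of the terminal pathway, 14 of 17 inhibitors and 8 of 8 receptors. In WT 2 of the 38 rose with the challenge and 0 fell, a share near the 3.59% of all genes that rose. Vsig4, a complement receptor of tissue macrophages, rose by 2.64 ± 0.53 (adjusted p = 0.0334), and Daf2, a decay accelerating factor, rose by 0.85 ± 0.21 (adjusted p = 0.0442). Under the smSocs3-KO label 2 rose and 2 fell, beside 1.71% and 0.734% of all genes. Vsig4 rose by 3.01 ± 0.53 (adjusted p = 0.0247), from −1.07, −0.05 and −0.16 to 1.94, 2.88 and 2.94. Itgb2, the beta chain of complement receptor 3, rose by 1.92 ± 0.42 (adjusted p = 0.0428). The lectin pathway protease Masp2 fell by 1.38 (SE 0.30, adjusted p = 0.0428) and the inhibitor Susd4 fell by 1.32 (SE 0.30, adjusted p = 0.0493).

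Of the 38, 6 (C4bp, C6, Cd46, Cd59b, Cpn1 and Hc) passed the filter only through the arrays labelled smSocs3-KO. By genotype, 0 of the other 32 were higher before challenge, where 0.0264% of all genes were, and 3 were higher at day 3, where 0.958% were, with 0 lower at either time. At day 3 these were C2, the partner of C4 in the C3-cleaving enzyme (1.69 ± 0.26, adjusted p = 0.018), and the C1 proteases C1ra (1.29 ± 0.22, adjusted p = 0.0272) and C1rb (1.16 ± 0.23, adjusted p = 0.0397). C2 read 2.48, 2.33 and 2.78 in WT and 4.03, 4.20 and 4.43 under the label at day 3. It read 3.41, 3.09 and 2.97 against 3.60, 3.53 and 4.48 before challenge. The arrays did not overlap at either time, and WT day 3 lay below WT before challenge for C2. C1ra and C1rb are near-identical paralogues, so signal at 1 probe may include the other gene.

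Cpn1, the catalytic chain of the carboxypeptidase that inactivates C3a and C5a, was not well above background on any WT array and was above it on all 6 arrays labelled smSocs3-KO. Where 1 group is below background, its level is a bound, taken per array as the higher of the lowest signal well above background and the probe's own signal. Cpn1 was then at least 9.73-fold higher before challenge (adjusted p of the fit 0.0191) and at least 5.11-fold higher at day 3 (adjusted p = 0.0224). A gene kept only through the groups where it is high had to differ, so these p-values, and those of C4bp and C6, are given as values and support nothing. C4bp, which binds C4b and limits the classical pathway, was at least 5.8-fold higher before challenge (adjusted p = 0.133). At day 3 1 of 3 WT arrays measured it (−3.32), against −1.17, −1.57 and −1.47 under the label (adjusted p of the fit 0.0416), so that no fold is given. C6, of the terminal pathway, was at least 4.43-fold higher at day 3 (adjusted p = 0.0538) and did not pass.

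A further 3 genes had large differences that did not pass. Cfi, the protease that inactivates C3b and C4b, read −1.12, −1.79 and −2.19 in WT before challenge, 2.09, 0.24 and −1.28 in WT at day 3, −0.38, 1.13 and 1.29 before under the label and 2.81, 3.47 and 3.20 at day 3. Its differences lay between 2.05 and 2.81 in the 4 comparisons, with adjusted p-values of 0.0858 to 0.794. Ptx3, a pentraxin that binds C1q, was 4.05 ± 1.07 higher at day 3 under the label (adjusted p = 0.0683), with arrays from −0.91 to 2.52. C7 of the terminal pathway differed by −1.90 ± 0.58 in WT at day 3 (adjusted p = 0.0746).

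**Figure D5:**
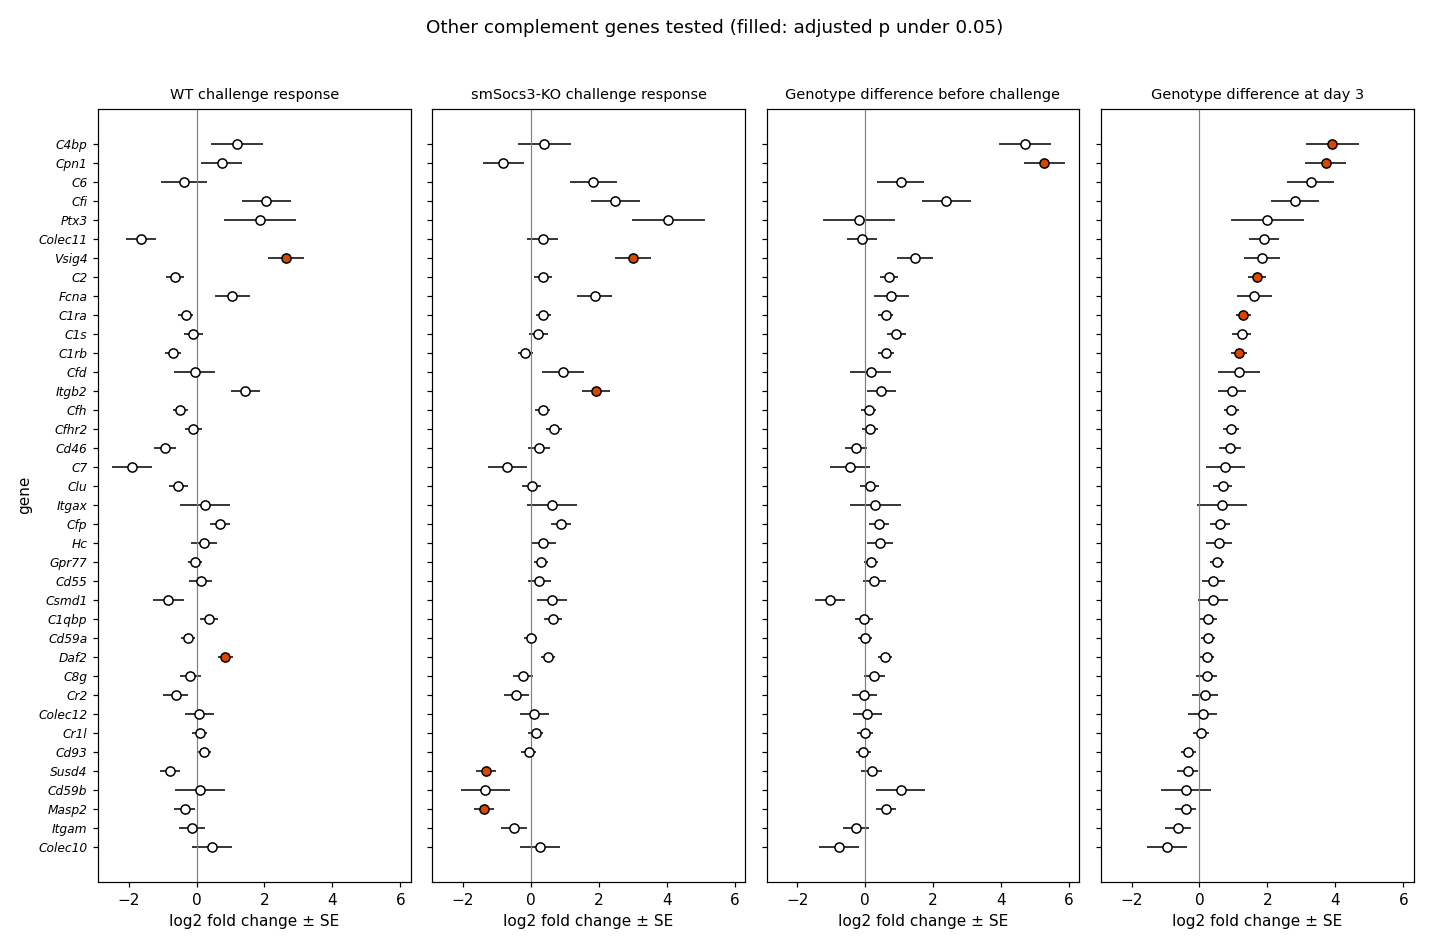
Log2 fold change ± SE (horizontal axis) of the 38 other complement genes tested (vertical axis, ordered by the genotype difference at day 3) in the 4 comparisons. Filled points passed an adjusted p under 0.05, which were 2, 4, 1 and 5 genes from left to right. Cpn1 (both times) and C4bp (day 3) are among the filled points by genotype, and values of C4bp, Cpn1 and C6 against WT rest on signals at or below background.

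Genes that ran most like the members across the 12 arrays were named by Pearson correlation, as a description. The mean of the C1q chains ran closest to Ctss (0.987), Fcgr3 (0.985), Cndp2 (0.983), Vsig4 (0.981) and Fam107b (0.98). Ctss, the protease cathepsin S, and Fcgr3, an immunoglobulin receptor, are genes of antigen-presenting and phagocytic cells, and they rose under the smSocs3-KO label by 2.27 ± 0.46 (adjusted p = 0.0379) and 1.73 ± 0.36 (adjusted p = 0.0384). C3 ran closest to Chi3l1 (0.976), Nkx2-9 (0.964), Slc39a8 (0.949), Wnt4 (0.945) and C4bp (0.926), of which Nkx2-9 was above background on no WT array and C4bp on 1. Chi3l1, a secreted chitinase-like protein, was above background on 2 WT arrays at each time, and so was kept only through the arrays labelled smSocs3-KO. It read 4.96 ± 0.42 higher under the label before challenge and 4.80 ± 0.42 higher at day 3. Its adjusted p-values in the fit (0.00401 and 0.00199) are given as values and support nothing, as for Cpn1. Cfb ran closest to Tmem132d (0.985), Tmem176b (0.978), Prg4 (0.975), Gngt2 (0.974) and Cyp7b1 (0.972), and Tmem132d was above background on no WT array. Prg4, the lubricating protein lubricin, rose in both genotypes (2.68 ± 0.61, adjusted p = 0.0395, and 3.14 ± 0.61, adjusted p = 0.0349) and was higher under the label at day 3 (3.81 ± 0.61, adjusted p = 0.0219), as Cfb was. The points share arrays and scaling.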

How the data were processed

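The authors deposited the scanner output of 12 one-colour arrays. Its processed signal, a linear intensity for each spot, had been background-subtracted by Feature Extraction (10.7.1.1 in the file headers, 9.5.1.1 in the submitters' processing notes). Their quantile normalized intensity table, also deposited, correlated with the scanner values of each array at a Spearman rho of 0.999971 or more and served as an alternative. Groups and replicate numbers were read from the labels.

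Control spots and outlier spots were left out, spots of a probe were averaged as log2 processed signal, and the array's 75th percentile was subtracted. Probes stayed in if every array of 1 or more groups had them well above background (32283 of 55681 probes), and the brightest kept probe stood for a gene. The 22761 genes, named as in the array's design, of which 15702 had a RefSeq symbol or synonym, were fitted with 4 group means in limma 3.58.1 (R 4.3.3). P-values were Benjamini-Hochberg adjusted over all genes and called under 0.05. In data simulated for the WT challenge response over 22757 genes, 183 of 200 genes changed by 3 log2 units were called, with 21 unchanged ones. The largest difference of a member was 2.07, so this recovery does not apply to the members' differences. The simulated noise was drawn independently for each gene and array, with no slide effect. The count of unchanged genes called therefore does not carry over to these data either.

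The members and lists were chosen with earlier results of these data known. All members were named, as were other complement genes called in any comparison or among the 3 largest differences of each pairwise comparison, and the 5 genes most correlated with each pattern. Alternatives covered background correction, normalization, filter, probe choice, moderation, arrays in the fit, slide, replicate number and each array left out. Fluorescence above background limits dim probes, and 3 arrays per group limit the precision. The arrays of the study's other experiments were not analysed here.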

Additional observations from a re-analysis of the deposited data

How the results depend on the processing

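The counts of members called depended on the processing, as did the counts over all genes. Before challenge, the genotype count was 1, in a fit that called 6 of all genes. It was 0 under normexp with quantile normalization, quantile normalization and the authors' table (4 of all genes in each). It was also 0 without moderation (0 of all genes), on only the 2 groups compared (7), and with the slide as a fixed (0) or random block (1). The WT challenge count was 1, in a fit that called 4.68% of all genes. It was 0 without the filter (0.0287% of all genes called), without moderation (2.68%) and on 2 groups only (0%). It was 2 with trend and robust moderation (8.1%), and 3 with the slide as a fixed (10.4%) or random block (9.34%). The smSocs3-KO challenge count was 5, in a fit that called 2.45% of all genes. It was 0 without the filter (0.497%), without moderation (0.132%) and with the slide as a fixed block (0.228%). It was 3 on 2 groups only (1.75%) and 4 with the slide as a random block (1.4%). The count was 6 under normexp with quantile normalization (3.19%), median centring (3.69%), the stricter filter (2.79%) and trend and robust moderation (3.59%). The genotype count at day 3 was 3, in a fit that called 1.11% of all genes. It was 2 without the filter (0.259%) and on 2 groups only (0.277%), and 1 without moderation (0.163%). It was 0 with the slide as a fixed (0%) or random block (0.00439%). With 1 array left out the counts ranged from 0 to 6 in WT and 0 to 6 under the smSocs3-KO label. They ranged from 0 to 1 before challenge, 1 to 3 at day 3 and 0 to 0 for the interaction. In the same order, the counts over all genes ranged from 0 to 3628, 42 to 1918, 1 to 14, 45 to 615 and 0 to 10. The cause was not tested. Centring each array on its median moved the median of all genes to 0.17 in WT and 0.15 under the label, from −0.02 and −0.06.

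The labels give replicate numbers to all groups, but of 11 same-numbered pairs 4 correlated above 0.1 (−0.403 to 0.464), so the numbers were not taken to pair arrays. With the replicate number as a block, the counts were 0 in WT, 0 under the smSocs3-KO label, 0 before challenge and 0 at day 3. In the same order, 0, 2, 1 and 2 of all genes were called with that block. In that fit C3 differed by −0.05 in the WT response and 0.27 in the interaction, and the interactions of C4b, C3ar1 and Socs3 were −0.01, −0.03 and −0.12, each of the opposite sign.

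The other sign changes were in differences that had not passed. The WT challenge difference of C3 was −0.22 with normexp, −0.21 with quantile normalization and in the authors' table, −0.06 with the mean of the probes and −0.17 at the second probe, which was added after the data had been seen. Its smSocs3-KO difference was −0.01 (mean of the probes), −0.05 (fixed slide block), −0.01 (random block) and −0.04 (second probe), and its interaction 0.27, 0.28, 0.28, 0.05 and 0.13 in the order of the WT settings. That of Serping1 in WT was −0.13, −0.14 and −0.13 under the first 3. With the slide as a fixed block, the genotype differences before challenge of C1qa, C5ar1 and Socs3 were −0.13, −0.20 and −0.21, and the interactions of C1qb and C4b −0.06 and −0.01. With 1 array left out, C3 ranged from −0.01 to 0.14 in WT, −0.14 to 0.26 under the label and −0.19 to 0.21 in the interaction, Serping1 from −0.02 to 0.18 in WT, C3ar1 from −0.13 to 0.68 at day 3, and the interactions of C4b, C1qb and C3ar1 from −0.11 to 0.35, −0.08 to 0.55 and −0.18 to 0.64.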
